A study of Mus musculus with 10 samples.

Results

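The small leucine-rich proteoglycans (SLRPs) are secreted proteins of the extracellular matrix, and 10 of their genes, Prelp, Omd, Optc, Fmod, Ogn, Aspn, Dcn, Bgn, Lum and Podn, were followed in mouse bladder. They were taken by name from a larger gene family, with no cut on a measured value but with earlier results of these data known, and make up 10 of the 55536 genes counted. All 10 matched 1 entry each in GENCODE vM21, the annotation of build GRCm38. Each SLRP carries a core of leucine-rich repeats, and most carry chondroitin, dermatan or keratan sulfate chains. They bind fibrillar collagens, set the width and spacing of the fibrils, and bind growth factors such as TGF-β. Connective tissue cells make most of them in many organs, and the family is divided into classes by gene structure and the pattern of cysteines.

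RNA of bladder tissue was sequenced from C57BL/6 mice in 10 libraries. There were 4 libraries of WT mice, 3 of OMD-/- mice, which lack osteomodulin, and 3 of PRELP-/- mice, which lack the proline and arginine-rich end leucine-rich repeat protein. One label of the latter group spells the genotype "PRLEP-/-", while the titles spell PRELP. The study describes both knockouts as constitutive, with exons 2 and 3 targeted and a β-galactosidase gene placed under each gene's own promoter. The labels give neither age nor sex, nor do they say whether a library held 1 mouse or several. The sample records describe whole bladder homogenate, while the study speaks of isolated epithelium. Where separate animals per library are not stated, p-values measure the spread between these libraries, which may in part be technical.

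Total counts ran from 20391437 to 46269079 per library. Levels below are CPM, the counts of a gene scaled to a common library size, after TMM normalisation. Uroplakins of umbrella cells, basal keratins and fibroblast, smooth muscle, endothelial and leukocyte markers were all present, with Upk1a at 2777 to 7826 CPM, Pdgfra of fibroblasts at 112 to 364 and Myh11 of smooth muscle at 47.8 to 523. The libraries thus carried RNA of the bladder wall besides that of urothelium. The WT libraries fell into pairs. The Y-linked genes Ddx3y, Eif2s3y, Kdm5d and Uty summed to 204 and 175 CPM in WT libraries 1 and 2 and to 0 and 0.0490 CPM in WT libraries 3 and 4. Xist, which is made from the inactive X chromosome, had 107 and 129 counts in the first pair and 23019 and 27694 in the second. Among the knockouts, PRELP-/- library 1 had Y-linked reads (97.9 CPM) with 7 Xist counts. PRELP-/- libraries 2 and 3 and OMD-/- library 1 held both kinds, with 17.0 to 18.1 CPM of the Y-linked genes and 810 to 1212 Xist counts. OMD-/- libraries 2 and 3 had 0.801 and 0.722 CPM of the Y-linked genes. Their 2094 and 1677 Xist counts lay far below those of WT libraries 3 and 4. PRELP-/- library 1 also stood apart from the other PRELP-/- libraries in the count table as a whole, with a mean chi-square per degree of freedom of 223 and 220 against 3.57 between libraries 2 and 3. OMD-/- library 1 did so less strongly, with 26.8 and 24.5 against 3.10 between OMD-/- libraries 2 and 3. The WT libraries had 11.6 and 8.30 within the pairs and 28.9 to 49.3 between them. For the members, values or calls without PRELP-/- library 1 or against 1 WT pair alone are given where they change a call or a direction.

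Prelp (chr1:133910304-133921414, - strand), Optc (chr1:133897199-133907999, - strand) and Fmod (chr1:134037254-134048277, + strand) share a cluster, in which the body of Optc begins 2304 bases beyond the end of Prelp on the same strand and Fmod lies 116 kb on the other side. Omd (chr13:49582462-49592822), Ogn (chr13:49608046-49624501) and Aspn (chr13:49544443-49567565) lie in a row on the + strand, 15.2 kb and 14.9 kb from Omd. Dcn and Lum are 47.0 kb apart on chromosome 10, Bgn is on the X chromosome and Podn on chromosome 4.

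The 250 bases before the RefSeq start (GRCm38.p6) are shown for 4 genes, because Prelp and Optc are the neighbours that were both low in PRELP-/- and Prelp, Bgn and Podn are the members that rose in OMD-/-. Each is written 5′ to 3′ on the strand of its gene, and capitals mark any match, on either strand, to the TATA box TATAAA, the GC box GGGCGG, the AP-1 site TGANTCA, the SMAD box CAGAC or the TEAD site GGAATG.
Prelp, chr1:133921402-133921651, - strand: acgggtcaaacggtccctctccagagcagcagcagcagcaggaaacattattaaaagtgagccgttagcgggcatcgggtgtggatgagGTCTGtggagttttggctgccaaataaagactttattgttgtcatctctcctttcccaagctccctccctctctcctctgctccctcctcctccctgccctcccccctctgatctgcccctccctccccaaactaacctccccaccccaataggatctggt
Optc, chr1:133908000-133908249, - strand: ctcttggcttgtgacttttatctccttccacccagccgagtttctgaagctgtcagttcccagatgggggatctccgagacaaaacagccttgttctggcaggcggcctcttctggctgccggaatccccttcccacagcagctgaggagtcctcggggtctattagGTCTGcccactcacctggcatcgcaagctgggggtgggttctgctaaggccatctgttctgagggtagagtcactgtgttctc
Bgn, chrX:73483351-73483600, + strand: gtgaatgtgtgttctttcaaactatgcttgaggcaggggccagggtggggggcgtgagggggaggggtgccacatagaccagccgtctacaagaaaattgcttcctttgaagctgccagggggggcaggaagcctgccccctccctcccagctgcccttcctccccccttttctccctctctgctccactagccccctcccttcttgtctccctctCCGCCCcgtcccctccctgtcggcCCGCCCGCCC
Podn, chr4:108031955-108032204, - strand: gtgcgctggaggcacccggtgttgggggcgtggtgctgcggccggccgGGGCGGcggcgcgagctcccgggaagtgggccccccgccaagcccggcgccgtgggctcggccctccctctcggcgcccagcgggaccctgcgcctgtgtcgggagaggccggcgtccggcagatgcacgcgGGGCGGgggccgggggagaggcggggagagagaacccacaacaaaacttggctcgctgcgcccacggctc
No motif was common to the 3 genes that rose. Prelp and Optc each held 1 SMAD box, Bgn held 3 matches of the GC box, of which 2 overlap, and Podn held 2. A SMAD box stood in 42.2% and a GC box in 32.7% of the 32851 RefSeq promoters of this length. Of the 8 members in the promoter table, none held an AP-1 site, which 6.75% of all promoters held. The base composition of the members ranged widely, from 30% G and C before Aspn to 78% before the first of the Podn starts, against a median of 52.4% over all promoters. Aspn and Ogn each held 2 matches of the TATA box, separate in Aspn and overlapping in Ogn (12.4% of all promoters had at least 1), and Ogn also held a TEAD site (12.6%). These are matches of letters only.

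The targeted genes were examined first. Prelp, a class II member that anchors basement membranes to collagen through its heparin-binding tail, had 74, 46 and 46 counts in the PRELP-/- libraries. The WT libraries had 15890, 6498, 5744 and 4848 counts and the OMD-/- libraries 16374, 19429 and 18078. The 166 counts that remained in PRELP-/- put Prelp 108-fold below WT, with a 95% interval of 92.8 to 127 that covers counting error only. Counts are given per gene, so it cannot be read from them which exon the remaining reads came from. Omd, a class II keratan sulfate proteoglycan best known from bone, was barely detected in any library. It had 0 counts in each OMD-/- library, 0, 1, 8 and 12 in the WT libraries and 5, 7 and 7 in PRELP-/-. Over the whole group, a floor of 3 counts in OMD-/- puts Omd at least 3.95-fold lower than in WT. The first WT pair overlapped the knockout, and against WT libraries 3 and 4 alone the bound was 9.85-fold and against PRELP-/- 6.57-fold. Omd lies within Cenpp on the opposite strand but shares no exon base with it, and it had too few counts for the test across genes. The genes that mark bone and cartilage, where Omd is typically found, were near 0 as well, with Matn3 at 0 in every library and Acan at most 0.0457 CPM, although Runx2 was present at 8.86 to 21.6 CPM.

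Dcn had the highest mean level of the 10 genes in every group. Per length (RPKM, CPM divided by the exon length in kilobases), Dcn stood first in WT with 353 ± 72.0 (SD, n = 4). Bgn (76.0 ± 18.8) and Prelp (74.0 ± 12.0) followed and overlapped each other. Lum came next at 37.7 ± 15.8 and stood apart from Prelp above it and Podn below it. Podn (14.4 ± 2.39), Ogn (12.1 ± 11) and Fmod (9.66 ± 5.32) overlapped as neighbours. Aspn followed at 1.70 ± 0.524, and Optc (0.595 ± 0.472) and Omd (0.103 ± 0.113) were the lowest and overlapped. When the length of the longest transcript was used in place of all exons, Bgn was at 174 ± 43.1 and no longer overlapped Prelp. In OMD-/- Prelp stood above Bgn, with 223 ± 8.51 against 189 ± 9.83 (SD, n = 3), but by the longest transcript Bgn was at 432 ± 22.5 and stood above Prelp. By either length, Prelp stood eighth in PRELP-/- at 0.753 ± 0.357.

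**Figure D1:**
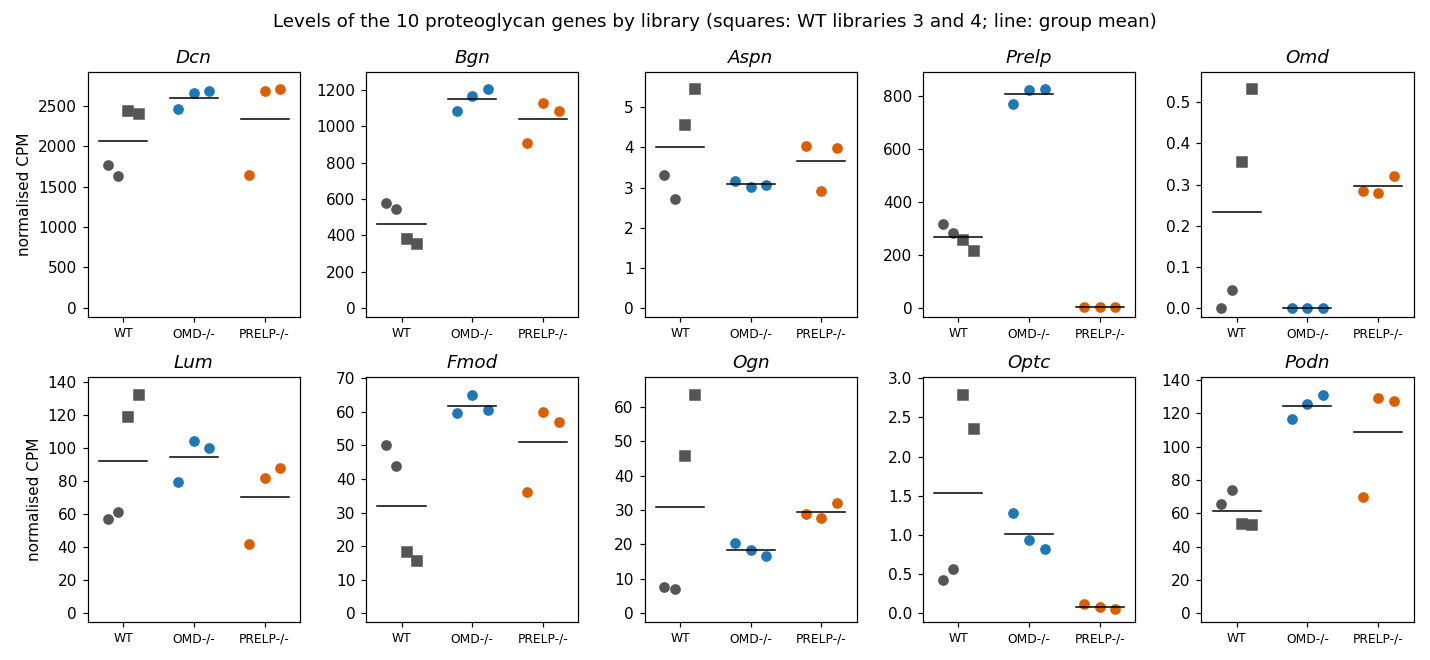
Normalised CPM (y axis, from 0, a separate scale in each panel) of the 10 genes in each library, grouped as WT (4 libraries), OMD-/- (3) and PRELP-/- (3); lines are group means and squares are WT libraries 3 and 4. Prelp, Bgn and Podn were above every WT library in all OMD-/- libraries, while Ogn, Optc, Lum and Fmod spread widely within WT.

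Class I holds Dcn, Bgn and Aspn. Bgn (biglycan), which carries chondroitin or dermatan sulfate chains and binds collagen and TGF-β, was at 579, 544, 379 and 351 CPM in WT. It was at 1087, 1168 and 1204 CPM in OMD-/- and at 908, 1127 and 1083 CPM in PRELP-/-. Every knockout library lay above every WT library. Bgn rose 2.49-fold in OMD-/- (log2 change 1.32, adjusted p = 0.000391, SE 0.16 in edgeR's quasi-likelihood fit, Benjamini-Hochberg adjusted). In PRELP-/- it rose 2.21-fold (log2 1.15, SE 0.22, with an edgeR adjusted p of 0.0190). The second of these calls was lost with 1 library left out in 4 of 7 cases, with adjusted p of 0.0732 without WT library 3, 0.0582 without WT library 4, 0.0685 without PRELP-/- library 2 and 0.0583 without PRELP-/- library 3 in edgeR. It was also lost against WT libraries 1 and 2 alone (log2 0.86, adjusted p = 0.189 in edgeR), while the call in OMD-/- held in all 18 alternatives.

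Dcn (decorin), the most abundant member, was at 1771, 1634, 2440.2 and 2407 CPM in WT. It was at 2469, 2661 and 2687 CPM in OMD-/- and at 1645, 2685 and 2708 CPM in PRELP-/-. The OMD-/- libraries lay above all WT libraries, the highest of which came close, and PRELP-/- library 1 lay among the lower WT pair. Dcn did not pass the test in either knockout, with log2 changes of 0.33 (adjusted p = 0.115, SE 0.15) in OMD-/- and 0.17 (adjusted p = 0.695, SE 0.25) in PRELP-/- by edgeR. In OMD-/- it was called higher in 4 of 18 alternatives, among them against WT libraries 1 and 2 alone. Aspn (asporin), which has a run of aspartates in place of the usual chains and binds TGF-β, was low in all groups. It ranged from 2.71 to 5.45 CPM in WT, while OMD-/- had 3.01 to 3.16 and PRELP-/- 2.93 to 4.03. The groups overlapped and neither comparison passed, with log2 changes of -0.38 (SE 0.26) and -0.15 (SE 0.28).

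Among the class II genes, Prelp rose more in OMD-/- than any other member, except against WT libraries 3 and 4 alone, where Fmod rose by log2 1.87 and Prelp by 1.78. It was at 317, 284, 255 and 215 CPM in WT and at 772, 824 and 826 CPM in OMD-/-. All OMD-/- libraries lay above 2 times the highest WT library. The rise was 3.02-fold, with a log2 change of 1.59 (adjusted p = 1.28e-05, SE 0.12 in edgeR's quasi-likelihood fit, Benjamini-Hochberg adjusted), and it held in all 18 alternatives, between 1.42 and 1.78. Against WT libraries 1 and 2 alone the log2 change was 1.42. In PRELP-/- Prelp was at 4.20, 1.84 and 2.11 CPM, a log2 change of -6.66 (SE 0.35).

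Fmod (fibromodulin), a keratan sulfate proteoglycan that steers collagen cross-linking, was at 50.0, 43.9, 18.3 and 15.5 CPM in WT. OMD-/- had 59.8, 65.2 and 60.6 CPM, above each WT library, and PRELP-/- had 36.1, 60.0 and 56.9 CPM, which overlapped WT. The WT pairs did not overlap, and the errors of the fold changes were wide. The log2 changes were 0.95 (adjusted p = 0.143, SE 0.42) in OMD-/- and 0.65 (adjusted p = 0.347, SE 0.42) in PRELP-/- by edgeR. Against either WT pair alone, Fmod passed in OMD-/- (log2 0.39 and 1.87). Lum (lumican), known for the spacing of fibrils in the cornea, was at 57.3, 61.3, 118.5 and 132 CPM in WT. It was at 79.1, 104 and 99.7 CPM in OMD-/-, between the WT pairs, and at 41.8, 81.8 and 88.1 CPM in PRELP-/-. The log2 changes of 0.03 (95% interval -0.61 to 0.68) and -0.40 (-1.13 to 0.33) missed the threshold and leave room for changes in both directions. In OMD-/- Lum was called higher against WT libraries 1 and 2 alone and lower against WT libraries 3 and 4 alone.

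Optc and Ogn belong to class III. Optc (opticin), best known from the vitreous of the eye, had few reads. It had 21, 13, 63 and 53 counts in WT, 27, 22 and 18 in OMD-/- and 2, 2 and 1 in PRELP-/-. Each PRELP-/- library was below every library of the other groups. Optc fell in PRELP-/- with a log2 change of -4.20 (adjusted p = 0.0349, SE 0.96 in edgeR with Benjamini-Hochberg adjustment). Summed over libraries, 5 counts against 150 gave a level 16.3-fold lower, with a 95% interval of 6.84 to 51.0 from counting error. Against WT libraries 1 and 2, which had the lower level, it was 5.99-fold (2.33 to 19.6), and against OMD-/- 12.9-fold (5.27 to 41.1). The call was lost without PRELP-/- library 2 (adjusted p = 0.0946) or 3 (0.0846) and against WT libraries 1 and 2 alone (0.156), all in edgeR. Optc did not pass the low-count filter when WT library 2, 3 or 4 was left out. For each 1000 Prelp counts there were 1.32, 2.0, 11 and 10.9 Optc counts in the WT libraries and 1.65, 1.13 and 0.996 in OMD-/-. The level of Optc therefore did not move in a fixed ratio with that of Prelp, and in OMD-/-, where Prelp rose, Optc had a log2 change of -0.57 (SE 0.64) that did not pass. Whether the few Optc reads come from transcripts that start at Prelp was not tested.

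Ogn (osteoglycin, also called mimecan) was at 7.64, 7.12, 45.7 and 63.6 CPM in WT. It was at 20.3, 18.4 and 16.6 CPM in OMD-/- and at 29.0, 27.6 and 32.1 CPM in PRELP-/-. Both knockouts lay between the WT pairs, without overlap with either. Over all WT libraries the log2 changes were -0.75 (adjusted p = 0.593, SE 0.92) in OMD-/- and -0.08 (adjusted p = 0.957, SE 0.71) in PRELP-/- by edgeR. Against WT libraries 1 and 2 alone, Ogn was higher in both, with log2 changes of 1.31 (adjusted p = 0.000106) and 1.97 (adjusted p = 0.0180) in edgeR. Against WT libraries 3 and 4 alone it was called lower in OMD-/-, so its direction depended on which WT libraries were used.

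Podn (podocan), the class V member, was at 65.8, 74.1, 53.7 and 52.9 CPM in WT. It was at 117, 126 and 131 CPM in OMD-/- and at 69.7, 129 and 127 CPM in PRELP-/-. Podn rose 2.02-fold in OMD-/- (log2 1.02, adjusted p = 0.000191, SE 0.12 in edgeR's quasi-likelihood fit, Benjamini-Hochberg adjusted), where it passed in all 18 alternatives. In PRELP-/- it had a log2 change of 0.81 (adjusted p = 0.0813, SE 0.24 in edgeR). PRELP-/- library 1 lay within the WT range and the other PRELP-/- libraries well above it, and without library 1 Podn passed (log2 1.07, adjusted p = 0.00128 in edgeR). With all libraries kept it also passed by DESeq2, by limma-voom with quality weights and with 3 groups in one fit. It passed in 4 of 18 alternatives.

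**Figure D2:**
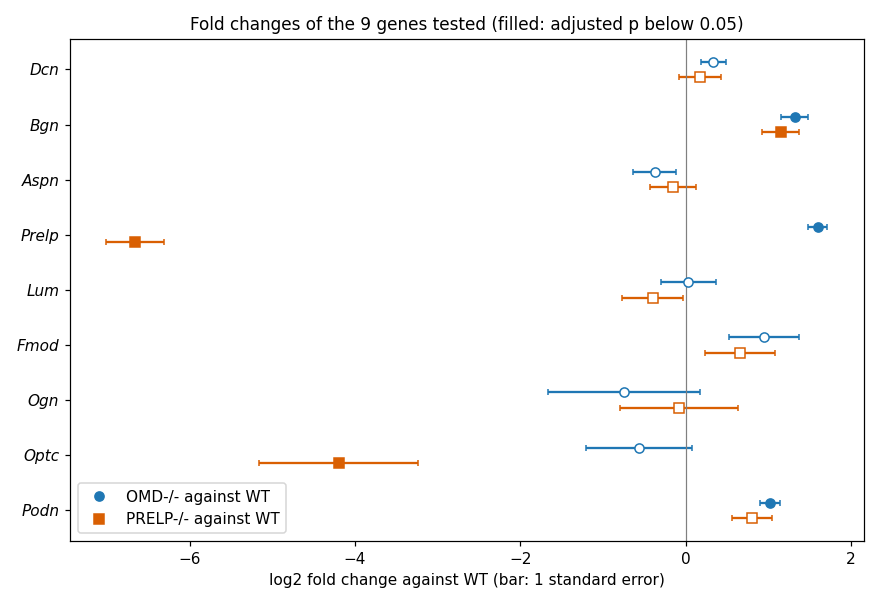
Log2 change against WT (x axis, bars are 1 standard error) of the 9 genes tested, in OMD-/- (circles) and PRELP-/- (squares); filled symbols have an adjusted p below 0.05 in edgeR. Bgn, Prelp and Podn are filled on the higher side in OMD-/-, Bgn on the higher side and Prelp and Optc on the lower side in PRELP-/-, and Ogn has the widest bar in OMD-/-.

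Counted together, 3 of the 9 members tested rose and 0 fell in OMD-/-, where edgeR called 29.4% of all 16647 genes tested, 14.3% as higher and 15.1% as lower. At an unadjusted p under 0.05, 4 members were higher and 0 lower. Of the members 5 lay above every WT library and 0 below, while 38.9% of all genes did not overlap WT, 19.2% above and 19.7% below. The median log2 change of the members was 0.33, against -0.00020 over all genes tested. In PRELP-/- 1 member rose and 2 fell, 1 of these being the targeted gene, where 7.29% of 16581 genes were called, 1.40% as higher and 5.89% as lower. That share rested on single libraries. It was 22.2% without PRELP-/- library 1, where 2 members rose and 2 fell, and 2.77% without library 2, and 0.715% and 2.70% against WT libraries 1 and 2 or 3 and 4 alone. Without PRELP-/- library 1 the log2 changes of Dcn (0.40), Fmod (0.87) and Lum (-0.11) still did not pass, and that of Prelp was -7.07. With all libraries, the median over the members was -0.08, against 0.02 over all genes, and 1 member lay above and 2 below every WT library, while 30.0% of all genes did not overlap WT, 13.6% above and 16.4% below. Both comparisons use the same WT libraries, so a high or low WT library moves both alike. With library totals in place of TMM, the median of all genes shifted to -0.164 in OMD-/- and -0.204 in PRELP-/-, and the share of calls that were higher went from 48.5% to 22.7% and from 19.2% to 3.1%. The same members passed in both knockouts under that scaling.

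In the direct comparison of PRELP-/- with OMD-/-, which shares no WT library, Prelp was the 1 member and the 1 gene called (0.00633% of 15805), with a log2 change of -8.24 (adjusted p = 0.00224, SE 0.38 in edgeR). The same-numbered libraries of these groups deviated together, but library 1 stood apart in both groups, so this cannot show pairing. With the replicate number as a block 43 genes passed, of which Prelp was the 1 member. Optc had a log2 change of -3.60 (SE 0.46) and every PRELP-/- library below every OMD-/- library, but its adjusted p was 0.400 by edgeR, with 0.0919 in the blocked fit and 0.00533 by DESeq2. Ogn, in which every PRELP-/- library exceeded every OMD-/- library, had 0.68 (SE 0.14) and an adjusted p of 0.690. Omd and Ogn lay wholly higher and Prelp and Optc wholly lower in PRELP-/-, while 15.1% of all genes tested did not overlap between the knockouts, 6.38% higher and 8.72% lower. For Bgn the difference between the knockouts was -0.15 (95% interval -0.50 to 0.20) and for Podn -0.20 (-0.70 to 0.30).

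The balance within the family shifted with Prelp. Of the summed level per length of the 10 genes, Dcn made up 60.5% ± 5.84 in WT, 46.8% ± 0.0851 in OMD-/- and 60.8% ± 2.83 in PRELP-/-. Prelp made up 13% ± 3.28 in WT, 23.4% ± 0.227 in OMD-/- and 0.129% ± 0.0946 in PRELP-/-. Bgn made up 13.5% ± 4.66, 19.8% ± 0.221 and 26.5% ± 3.45. By the length of the longest transcript, an alternative added after the data were seen, the share of Bgn was 23.0% ± 7.21, 32.9% ± 0.297 and 40.4% ± 4.22, and that of Prelp 9.75% ± 2.13, 17.0% ± 0.184 and 0.0849% ± 0.0603, so Bgn exceeded Prelp in OMD-/- too. Dcn then made up 56.9% ± 7.50 in WT and 42.3% ± 0.104 in OMD-/-. With the 7 other SLRP genes in the sum, of which Tsku was the highest, the exon-length share of Dcn in WT was 42.5% ± 5.63. The summed level was 580 ± 63.9 in WT, 954 ± 45.1 in OMD-/- and 656 ± 144 in PRELP-/-, and all OMD-/- libraries (902 to 984) exceeded all WT libraries (507 to 638). Shares of a sum are tied to each other, so a higher share of 1 gene lowers that of the others.

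**Figure D3:**
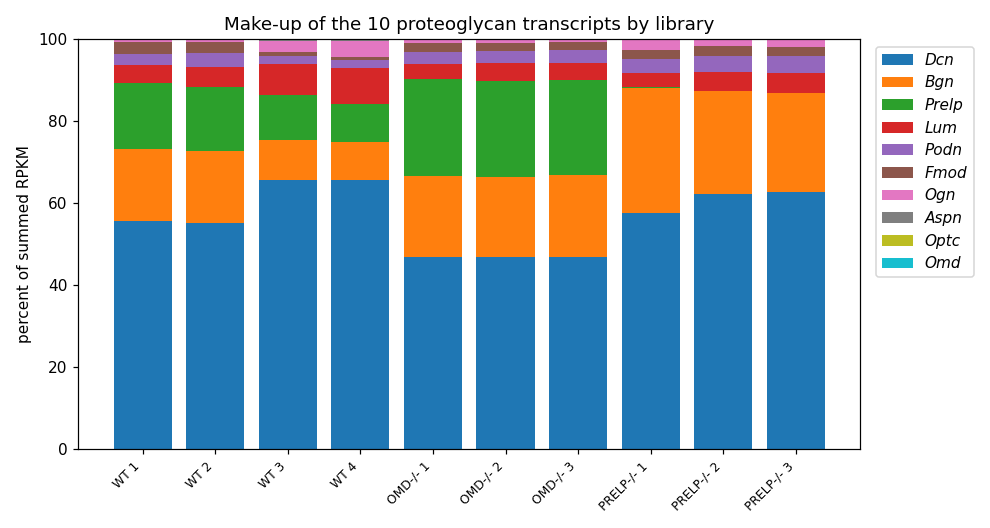
Percent of the summed RPKM (CPM per kilobase of exon) of the 10 genes (y axis) that each gene made up, in each of the 10 libraries (bars). Prelp widened from between 9.45% and 16.1% in WT to between 23.2% and 23.7% in OMD-/- and all but vanished in PRELP-/-, where Bgn took between 24.0% and 30.4%.

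The WT libraries themselves differed in every member. Libraries 3 and 4 were both above libraries 1 and 2 in 6 members and both below in 4, while 60.1% of all genes tested were ordered in 1 of these ways. Mean levels in libraries 3 and 4 were 20.3 times those in libraries 1 and 2 for Omd, at very low counts, 7.41 times for Ogn and 5.21 times for Optc. Lum was 2.12 times, Aspn 1.66 times and Dcn 1.42 times as high. In the other direction, libraries 1 and 2 were 2.78 times as high in Fmod, 1.54 times in Bgn, 1.31 times in Podn and 1.28 times in Prelp. The chromosome 13 genes Omd, Ogn and Aspn were thus all higher in the second pair, whereas Optc and its neighbours Prelp and Fmod went opposite ways. The 8 smooth muscle markers summed to 358 and 339 CPM in the first pair and 1360 and 1199 CPM in the second, so the amount of muscle RNA moved with this split as the Y-linked genes did. The part of these cell types and of the Y-linked genes in the differences between members was not tested.

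**Figure D4:**
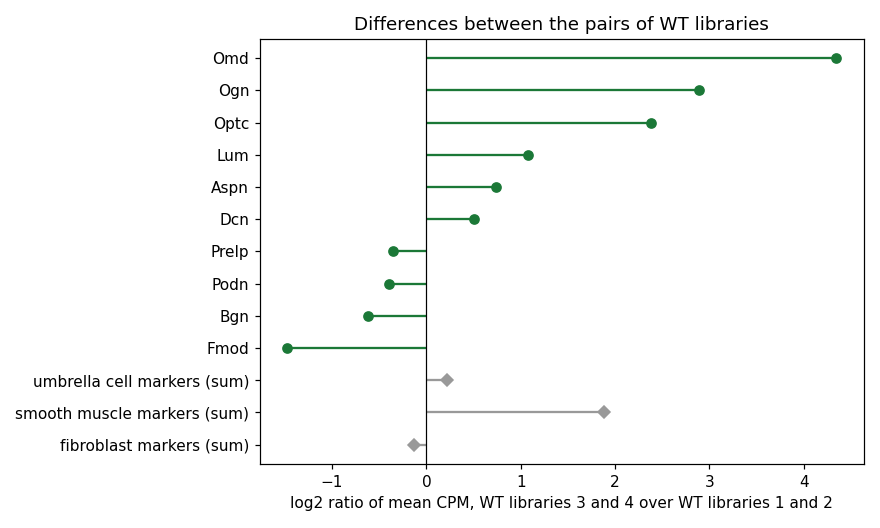
Log2 ratio of the mean level in WT libraries 3 and 4 over that in WT libraries 1 and 2 (x axis) for the 10 genes (circles) and for the summed markers of 3 cell types (diamonds). Omd, Ogn and Optc lie farthest to the right, Fmod farthest to the left, and smooth muscle markers lie to the right while fibroblast and umbrella cell markers lie near 0.

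Genes that act with the SLRPs were counted from hand-written lists, to be read against the 14.3% of all genes called higher in OMD-/- and the 1.40% in PRELP-/-. Of 21 tested genes for fibrillar collagens and fibril assembly, 18 rose in OMD-/- and 0 fell (median log2 0.80), and 3 rose in PRELP-/- (median 0.41). Col1a2, a chain of type I collagen, went from 2328 ± 288 CPM in WT (SD, n = 4) to 6283 ± 653 in OMD-/- (SD, n = 3) and 5136 ± 1715 in PRELP-/-, and passed in both. Pcolce, which enhances the trimming of procollagen, rose by log2 1.14 (SE 0.10) in OMD-/- and 0.71 (SE 0.15) in PRELP-/-. Col1a1 rose by 1.31 (SE 0.28) in PRELP-/-, while Col5a1 (1.25, SE 0.11) and Col3a1 (1.21, SE 0.11) were among the genes that rose in OMD-/-. The summed collagen list ran from 7770 to 9357 CPM in WT, from 18180 to 22322 in OMD-/- and from 9827 to 19970 in PRELP-/-, the lowest of the last group being library 1.

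Enzymes build the sugar chains of the SLRPs. Of 22 genes for the chain linkage and for chondroitin or dermatan sulfate, 7 rose in OMD-/- (14.3% of all genes did) and 0 passed in PRELP-/- by edgeR (7.29% of all genes did), with 2 at an unadjusted p under 0.05. The median log2 changes were 0.23 and 0.10. Chpf, a chondroitin polymerising factor, rose by log2 1.14 (SE 0.10) and Chst14, which sulfates dermatan sulfate, by 0.71 (SE 0.13). Chst11 (1.17, SE 0.29) and Chst12 (0.62, SE 0.10), which sulfate chondroitin, rose as well. Of 15 tested genes for keratan sulfate and tyrosine sulfation, 5 rose in OMD-/-, among them Chst2 (0.45, SE 0.08) and Fut8 (0.48, SE 0.11). Papss1 (0.36, SE 0.08) and Papss2 (0.93, SE 0.22), which make the sulfate donor, rose too. In PRELP-/- 0 passed by edgeR, with 1 at an unadjusted p under 0.05.

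Of 23 partners, ligands and receptors of the family, 14 rose in OMD-/- and 3 in PRELP-/-, with none lower, while 14.3% and 1.40% of all genes were called higher. Tgfb3, a ligand that decorin and biglycan bind, had 17.3 ± 1.51 CPM in WT, against 30.8 ± 1.99 in OMD-/- and 28.5 ± 2.12 in PRELP-/-. It passed in both, with log2 changes of 0.83 (SE 0.10) and 0.70 (SE 0.14). The complement genes C1qa (1.28, SE 0.18, and 0.80, SE 0.15) and C4b (1.18, SE 0.18, and 0.91, SE 0.22) also passed in both, C1qa being a macrophage product. Ltbp1, which holds latent TGF-β in the matrix, rose by 0.72 (SE 0.10) in OMD-/-. Of 9 tested proteases that cut SLRPs, 4 rose in OMD-/- (Mmp2, Mmp9, Mmp14 and Adamts1, between 0.78 and 0.97) and 0 passed in PRELP-/-, with 2 at an unadjusted p under 0.05. Without PRELP-/- library 1, where 22.2% of all genes were called, 13 of the 21 collagen and fibril genes, 11 of the 23 partners and 4 of the 9 proteases rose in PRELP-/-. Against WT libraries 1 and 2 or 3 and 4 alone, edgeR called 0 genes of these lists in PRELP-/-, with 4 and 6 collagen and fibril genes, 4 and 9 partners and 0 and 3 proteases at an unadjusted p under 0.05. In OMD-/- the collagen list had 16 to 19 genes higher when an OMD-/- library was left out and 17 and 18 against the WT pairs. Over all genes, an unadjusted p under 0.05 was reached by 6882 genes in OMD-/- and 4426 in PRELP-/-.

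Markers of cell types moved beside these genes. In OMD-/- 11 of 12 fibroblast markers rose (median log2 0.74), and their sum was 3550 to 3936 CPM in WT and 5947 to 6452 in OMD-/-. In PRELP-/- 1 of 12 rose (Tcf21, 0.61, SE 0.13; median 0.50), or 9 without library 1, and the sum was 3151 in library 1 and 6132 and 5940 in libraries 2 and 3. Of 8 leukocyte markers 5 rose in OMD-/- and 0 passed in PRELP-/-, among the former the macrophage genes Adgre1 (1.0, SE 0.16) and Cd68 (1.13, SE 0.24) and the B cell gene Cd79a. Their sum was 221 CPM in OMD-/- library 1, below all WT libraries (230 to 298), and 463 and 476 CPM in OMD-/- libraries 2 and 3. In PRELP-/- the sum was 136, 217 and 211 CPM, below all WT libraries, although 5 of the 8 log2 changes were positive (median 0.19). The count of 5 that rose in OMD-/- became 8 without OMD-/- library 1, 4 without library 2 or 3 and 2 against either WT pair alone. The umbrella cell markers had 3 of 7 higher in OMD-/- and 1 of 7 (Upk2, 0.68, SE 0.17) in PRELP-/-. Their medians were 0.30 and 0.68, with 5 and 6 higher at an unadjusted p under 0.05. Their sum was 9304 to 11166 CPM in WT and higher in every knockout library. It was 11698 to 15853 CPM in OMD-/- and 13363 to 23442 in PRELP-/-, the highest being library 1. The basal urothelium markers had 3 of 5 and 0 of 6 higher, with 4 in each knockout at an unadjusted p under 0.05. Of the 8 smooth muscle markers 0 were called by edgeR (medians -0.37 and -1.64), with 0 and 6 lower at an unadjusted p under 0.05. Of the 6 endothelium markers 0 were called (medians 0.78 and 0.51), with 4 and 1 higher at an unadjusted p under 0.05. The remaining lists had at most 1 call each in a comparison, among them Runx2 (higher in both) for cartilage and bone and Sox10 (higher in OMD-/-) for nerve, and 0 among the 4 tendon, 5 adipocyte and 5 skeletal muscle genes, few of which were tested. All 5 genes of the male accessory gland list were at 0 in every library. In whole tissue, more cells of a type cannot be told apart from more RNA per cell, and the part of these markers in the rise of Bgn, Podn and Prelp was not tested.

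As a description, each member was divided by the summed fibroblast markers of its library, of which Gsn, also made by other cells, gave the largest share. Bgn stayed above every WT library in both knockouts, with log2 ratios of 0.59 in OMD-/- and 0.83 in PRELP-/-. Podn did so with 0.29 and 0.39, and Prelp with 0.86 in OMD-/-. The study, however, saw Omd and Prelp expression only in the epithelium, by a β-galactosidase reporter and a similar in situ hybridization pattern. By co-staining it places both in a subpopulation of umbrella cells. The scale used here holds fibroblast markers only, so it does not address that source. Aspn was below every WT library in OMD-/- (-1.13), and Dcn (-0.41 and -0.24), Lum (-0.73 and -0.86) and Fmod (0.25 and 0.30) overlapped with WT in both. Dcn, whose CPM lay above the WT libraries in OMD-/-, did not do so on this scale.

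The 7 other SLRP genes gave 0 calls by edgeR in either knockout, with 4 tested and 1 of these, Chad, lower at an unadjusted p under 0.05 in both. Tsku (tsukushi), which binds several growth factors, was abundant, at 743 ± 27.9 CPM in WT, against 741 ± 59.0 in OMD-/- and 788 ± 35.7 in PRELP-/-. Its log2 changes were -0.01 (95% interval -0.17 to 0.16) and 0.07 (-0.21 to 0.34), the narrowest of the family. Chad (chondroadherin) had 1.43 ± 0.496 CPM in WT, against 0.745 ± 0.239 in OMD-/- and 0.601 ± 0.231 in PRELP-/-. All knockout libraries were below the WT libraries, but the log2 changes of -0.94 (adjusted p = 0.0899, SE 0.39) and -1.25 (adjusted p = 0.106, SE 0.42) missed the threshold in edgeR. Ecm2, next to Aspn, and Podnl1, related to Podn, did not pass. Kera, beside Lum, had 0 counts in all libraries, Epyc had 9 and 3 counts in WT libraries 3 and 4 and 0 elsewhere, and Nyx had at most 6.

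Other genes near the targeted loci were counted within 500 kb. Around Prelp 14 of 34 genes were tested, and 1 was higher and 4 lower in OMD-/-. That is 35.7% called, against 29.4% of all genes, 14.3% as higher and 15.1% as lower. In PRELP-/- 0 were higher and 2 lower, 14.3% against 7.29% of all genes. The 2 in PRELP-/- were Optc and Zc3h11a, a zinc finger gene 275 kb away, which fell by 1.32 (SE 0.31) on the log2 scale in PRELP-/- and by 1.06 (SE 0.15) in OMD-/-. Zc3h11a overlaps another annotated gene with its symbol, listed at 0, and Gm38394 on the same strand, so its count is uncertain. Gm38394 was also called lower in OMD-/- (log2 change -0.98, SE 0.22), so 2 of the 4 lower genes there lie at 1 locus. Around Omd 13 of 31 genes were tested, of which 2 were lower in OMD-/-, Bicd2 (-0.46, SE 0.08) and Nol8 (-0.30, SE 0.09). None was higher, so 15.4% were called, against 29.4% of all genes called and 15.1% called lower. In PRELP-/- 0 were called by edgeR, with 3 at an unadjusted p under 0.05. Fmod, Btg2 and Atp2b4 were not called in PRELP-/-. Of genes that overlap a member, Cenpp was at 0.270 CPM and shares 7 exon bases with Aspn, and the antisense Gm15851 was at 0.0360 CPM and shares 350 exon bases with Prelp. The strand setting of the counting is not given in the sources used here.

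**Figure D5:**
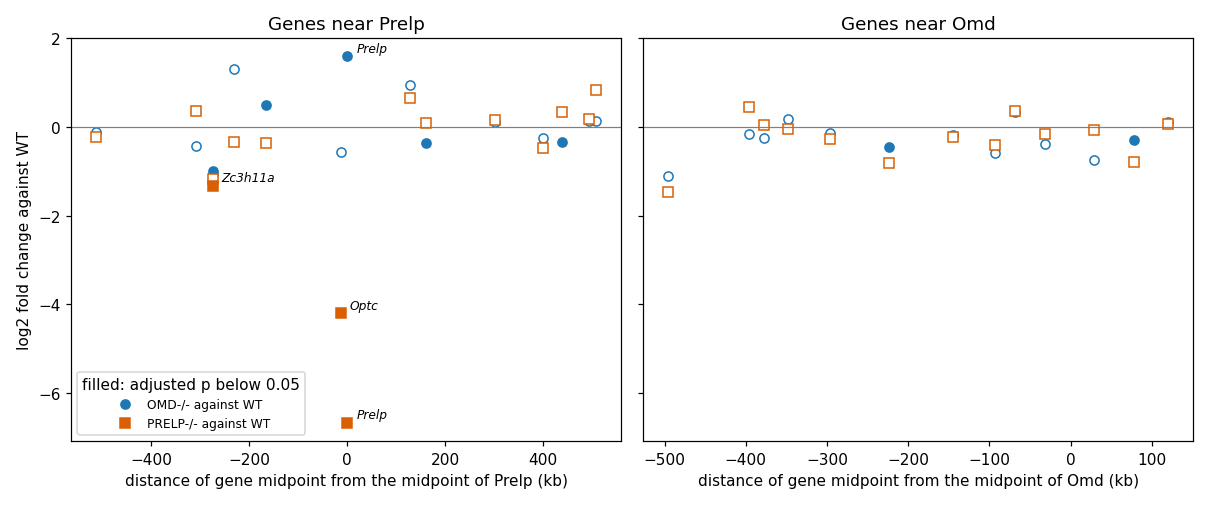
Log2 change against WT (y axis) of the tested genes within 500 kb of Prelp (left) and Omd (right) by the distance between gene midpoints in kb (x axis), in OMD-/- (circles) and PRELP-/- (squares); filled symbols have an adjusted p below 0.05 in edgeR. Prelp and Optc stand far below the other genes in PRELP-/-, while Prelp is the highest point of its panel in OMD-/-.

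Over the 10 libraries, the members fell into sets that moved alike, which is described here by Pearson's r of log2 CPM without a test, since the libraries share groups and the WT split. Bgn and Podn had an r of 0.93, Bgn and Fmod 0.88 and Fmod and Podn 0.87. After group means were removed, Bgn and Fmod had 0.99, whereas Fmod and Ogn had -0.92 and Bgn and Ogn -0.92. Dcn and Lum, neighbours on chromosome 10, had 0.79 and, within groups, 0.96, and Ogn and Aspn, neighbours on chromosome 13, had 0.80 and 0.89. Among 13064 protein-coding genes the closest to Bgn were Grn (0.998), Ythdf2 (0.996) and Clip3 (0.994). The closest to Podn were Fbln1 (0.992), a matrix gene of the fibroblast list, Ecm1 (0.992) and Slc7a8 (0.991). Fmod was nearest to Sorbs3 (0.985), Kank4 (0.984) and Lig1 (0.984), and Dcn to Ncam1 (0.977), Cdkn1c (0.971) and Txndc16 (0.969). Lum was nearest to Fhod3 (0.980), Rragd (0.979) and Hdac9 (0.965), Ogn to Mt1 (0.947), Hadhb (0.947) and Lypd6 (0.940), and Aspn to Zfp85 (0.980), Fbxo3 (0.944) and Eif5 (0.940). For Prelp, whose r includes the 3 libraries in which it was deleted and is not comparable with the others, they were Birc3 (0.904), Cnn2 (0.896) and Bfar (0.894). Omd and Optc were under 1 CPM on average and were not compared.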

How the data were processed

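Poly(A) RNA libraries of bladder tissue, 10 in all, were analysed from the raw counts per gene that the authors deposited, 1 file per library, without normalization. Per the file headers reads were aligned with HISAT2, while the submitters' processing notes list STAR 2.5.2b, bcl2fastq, featureCounts and DESeq2 and the builds GRCm38 and hg38. The authors' tables of DESeq2 comparisons were not used. Symbols, lengths and coordinates came from GENCODE vM21, promoters from RefSeq (GRCm38.p6).

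The 3 comparisons were fitted separately in edgeR 4.0.16 and R 4.3.3, with TMM normalization, its filter on low counts, the robust quasi-likelihood test (two-sided) and Benjamini-Hochberg adjustment over all tested genes, with a threshold of 0.05. The script was tested on simulated data. DESeq2 1.42.0 and limma 3.58.1 were alternatives, as were other scalings, no filter, a replicate block, a Y-linked covariate and leaving out libraries. The covariate was coded as present (Y-linked genes at 1 CPM or more) or absent. Libraries at 17.0 to 18.1 CPM were thus coded like the one at 204 CPM, and OMD-/- libraries 2 and 3 like WT libraries 3 and 4. A count of 0 was set against a floor of 3 counts, and floors and counting intervals cover counting error only.

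Named were the 10 members, the 7 other SLRP genes, called genes of hand-written lists (at most 4 a list and comparison, by smallest p), protein-coding genes near or overlapping a member, and the 3 genes closest to each member. Members and lists were chosen with earlier results of these data known. Deviations of same-numbered PRELP-/- and OMD-/- libraries correlated (r of 0.303, 0.181 and 0.148), and a block by number was fitted as an alternative. Differently numbered libraries were not compared in this way, and library 1 stood apart in both groups. These r values therefore cannot show that the numbers pair the libraries. All libraries of a group differed beyond counting noise and were kept separate, but this check cannot tell separate animals from separate preparations. In the alternative with close libraries summed, WT libraries 1 and 2, WT libraries 3 and 4, and libraries 2 and 3 of each knockout were added together. Some genes of the marker lists are not reported here by name.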

Additional observations from a re-analysis of the deposited data

Results flagged for a closer look

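Prelp was singled out because its effect differed between the knockouts in a direct test. It fell in PRELP-/-, where it was targeted, and rose in OMD-/-, and the difference, PRELP-/- against OMD-/-, was -8.24 on the log2 scale (SE 0.38, edgeR adjusted p = 0.00224), with every PRELP-/- library below every OMD-/- library. No member had a single WT library far enough from the others to stand out among 4. The WT libraries differed as pairs in every member, which such a check cannot show.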

How the results depend on the processing

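With 3 or 4 libraries a group and few reads in Omd and Optc, small changes were not detectable. Members called in OMD-/- numbered 3, where 29.4% of all genes were called. They became 5 without the filter on low counts (16.1% of all genes) and 5 with the Y-linked covariate (34.8%). They became 7 against WT libraries 1 and 2 (26.3%) and 8 against WT libraries 3 and 4 (39.8%). Of these 8, 4 were higher and 4 lower (Aspn, Lum, Ogn and Optc). The last choices, and the summing of close libraries, were added after the data were seen. In PRELP-/- the 3 became 5 by voom, 1 with the block, 1 with close libraries summed and 1 to 4 with a library left out. In the direct comparison the 1 became 2 by DESeq2, 3 by voom and 0 with close libraries summed by edgeR (186 genes at an unadjusted p under 0.05). All genes called in OMD-/- went from 4899 to 2485 with 3 groups in one fit, 1658 with close libraries summed and 2951 to 4850 with a library left out. In PRELP-/- they went from 1209 to 2547 by DESeq2, 6973 by voom, 2485 with 3 groups in one fit, 111 with the block, 536 with the covariate, 119 against WT libraries 1 and 2, 453 against 3 and 4, 13 with close libraries summed and 475 (without PRELP-/- library 2) to 3807 (without PRELP-/- library 1) with a library left out. In the direct comparison the 1 became 88 by DESeq2, 1012 by voom, 5 unfiltered, 3 with 3 groups, 43 with the block, 2 with the covariate, 0 with close libraries summed and 1 to 36 with a library left out. Directions reversed only in members that had not passed. In OMD-/- against all WT, Lum became -0.13 with library totals, -0.0047 by voom, -0.01 with the covariate, -0.0015 with close libraries summed, -0.41 against WT 3 and 4 and -0.14 to 0.26 with a library left out. Against WT 1 and 2 alone Ogn became 1.31, Optc 1.05 and Aspn 0.02, and with the replicate block Ogn 0.44 and Optc 0.14. In PRELP-/- Ogn became 1.12 with the block, 1.97 with the covariate (adjusted p = 0.00489 in edgeR), 1.97 against WT 1 and 2 and -0.41 to 0.53 with a library left out. Aspn became 0.04, 0.24, 0.24 and -0.30 to 0.02 under the same choices. Lum became 0.23 with the covariate and 0.23 against WT 1 and 2, and Dcn -0.04 with library totals and -0.06 against WT 3 and 4. The covariate marked Y-linked reads only as present or absent, and all PRELP-/- libraries counted as present. Its fold changes in PRELP-/- therefore repeat those against WT 1 and 2 and are not a separate check. In the direct comparison Dcn became 0.02 and Podn 0.01 by voom, and -0.27 to 0.05 and -0.35 to 0.04 with a library left out. Bgn in PRELP-/- also missed the threshold with the block, the covariate and close libraries summed (adjusted p = 0.182, 0.0630 and 0.454 in edgeR). Length by the longest transcript moved Dcn, Bgn and Podn. The causes were not tested. Same-numbered WT and OMD-/- libraries had r of 0.041, -0.0443 and 0.0236 and WT and PRELP-/- -0.0585, 0.137 and -0.0998, so these share only a number; the block gave 3472 calls in OMD-/-, with 4 members.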
